A study of Homo sapiens with 8 samples.

Results

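Human chromosome 19 carries the largest gathering of C2H2 zinc finger genes in the genome, and 246 protein-coding genes of the 58206 in the count table belong to it here. They are the genes on chromosome 19 of GENCODE release 29 (GRCh38) whose symbol is ZNF followed by a number and at most 1 letter. Their starts put 117 of them below 40 Mb, 77 between 40 and 56 Mb and 52 above 56 Mb. Both the family and the split points were selected on fold changes of the same comparison in the same 8 libraries, so counts and medians over the family describe these libraries and are not a test of it. Enough reads for testing were present for 201 members, 93 below 40 Mb, 63 in the middle and 45 above 56 Mb, out of 14289 genes tested.

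The RNA came from Alexander1, an established human hepatocellular carcinoma line. The parental libraries, labelled wt and Axin1 -, come from the line as it is, whose AXIN1 is described as lacking the region that binds the kinase GSK3. The restored libraries, labelled Axin1+, come from a stable derivative described as carrying full-length Axin1, a scaffold of the complex that destroys beta-catenin. The treatment label of all 8 samples, parental ones included, names retroviral transfer and clonal selection in hygromycin B. Each group has 4 libraries. The labels do not say how many clones were used or whether the libraries came from separate cultures, so p-values measure only the spread between these samples.

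Most members encode a KRAB domain in front of a row of zinc fingers. Each finger contacts a short stretch of DNA, and the KRAB domain recruits TRIM28, which brings the histone methyltransferase SETDB1 and the HP1 proteins to the bound site. Many such proteins bind retroelements and keep them silent. The genes arose by repeated tandem duplication, so neighbours are often paralogs with similar promoters and similar coding sequence. A search of the translated GENCODE transcripts found a KRAB pattern in 207 members, and the tested members held between 0 and 36 C2H2 fingers, with a median of 12.

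Library totals ran from 11232951 to 26400782 counts. AXIN1 itself was not higher in the libraries labelled restored: it lay between 47.4 and 55.3 CPM, the count scaled to the size of its library, in the parental libraries and between 37.7 and 48.2 CPM in the restored ones, a log2 fold change of -0.21 (SE 0.12, adjusted p = 0.267 by edgeR). Every direction given here therefore rests on the labels. All 11 liver markers were expressed, with a summed level of 24483 to 28690 CPM in parental and 17279 to 20887 CPM in restored libraries. The sum was mostly SERPINA1, with means of 16130 CPM in parental and 10358 CPM in restored libraries. Of the 11 markers, 3 had a positive log2 fold change and 8 a negative one. At an adjusted p under 0.05 by edgeR, TTR was higher and SERPINA1 and GPC3 were lower. ALB averaged 152 CPM in parental and 435 CPM in restored libraries and was not called. Restored replicate 1 held 13.8 CPM of it, below the parental range of 46.7 to 208 CPM, and the other restored libraries held 445 to 681 CPM. Of 10 markers of blood, endothelium and fibroblasts, the summed level was 7.65 to 9.80 CPM in parental and 38.6 to 60.8 CPM in restored libraries, with PECAM1 at 4.47 to 6.50 CPM in parental and 33.8 to 58.3 CPM in restored libraries. PDGFRB, a marker of fibroblasts and mural cells, went the other way, from 0.801 to 2.29 CPM in parental to 0.0493 to 0.430 CPM in restored libraries, with a log2 fold change of -2.87 (adjusted p = 0.0045 by edgeR); it was too low to be tested without parental replicate 2. The other endothelial markers CDH5 and VWF stayed at or below 0.248 CPM, the leukocyte marker PTPRC at or below 0.178 CPM, and CD3E had 0 counts in all 8 libraries. The part of these markers in the zinc finger results was not tested. Restored replicate 1 often lay between the groups: it was the lowest restored library for 45.7% of the genes called higher and the highest for 53.1% of those called lower. Results that rest on it are given with and without it. Where it stands apart from the other restored libraries, leaving it out narrows the spread within the group. Adjusted p-values and calls without it are therefore descriptions.

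Promoters of members in positional clusters are shown first, since neighbours are often paralogs. Common descent within a cluster was not tested. Clusters are runs of members whose starts lie under 1 Mb apart, without crossing a split point, and the 9 clusters with 5 or more tested members are lettered A to I along the chromosome. RefSeq promoter entries (GRCh38.p14) existed for 215 members, and the 250 bases upstream of the start were used. In each of the 6 clusters with 20 or more such members, the 12-base word was sought that most of its members carry on either strand, among words found in under 1% of the 27305 genes with an entry. These words were picked from the promoters by that count, so their frequency within a cluster is a description.

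In cluster E the word was GGGAAATGTAGT, present in 11 of 24 members with an entry, and in 0.454% of all genes. Cluster F had GGAATTCTGGGA in 9 of 20 members (0.0842% of all genes), cluster I had AACTACATTACC in 11 of 48 (0.0513% of all genes), cluster C had GTCCAATCAGGC in 18 of 29 (0.114% of all genes), and cluster G had AGGCCCCGCCCA in 10 of 32 (0.388% of all genes). In cluster B the word CCAATCAGGGGC was in 11 of 24 (0.0952% of all genes). The words of clusters B and C overlap in the letters CCAATCAGG, and that of cluster G holds CCGCCC, the reverse complement of the GC box GGGCGG. Shown next are, for the 5 clusters described at length, the 2 carriers with the smallest p whose word lies outside the gene's own annotated exons. Each runs 5′ to 3′ on the gene's strand up to the start or to the first exonic base, with every copy of the cluster's word in capitals as it reads on that strand; ZNF420 and ZNF675 hold 2 copies each. The last pair, with no word marked, belongs to ZNF302 and ZNF667, whose RNA was nearly absent from 3 restored libraries.
ZNF420 (cluster E), chr19:37078183-37078417 plus strand: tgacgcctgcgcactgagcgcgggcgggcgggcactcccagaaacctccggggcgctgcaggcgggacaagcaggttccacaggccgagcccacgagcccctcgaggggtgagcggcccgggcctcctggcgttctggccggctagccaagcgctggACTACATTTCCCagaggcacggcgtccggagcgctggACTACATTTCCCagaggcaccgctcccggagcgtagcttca
ZNF567 (cluster E), chr19:36687362-36687611 plus strand: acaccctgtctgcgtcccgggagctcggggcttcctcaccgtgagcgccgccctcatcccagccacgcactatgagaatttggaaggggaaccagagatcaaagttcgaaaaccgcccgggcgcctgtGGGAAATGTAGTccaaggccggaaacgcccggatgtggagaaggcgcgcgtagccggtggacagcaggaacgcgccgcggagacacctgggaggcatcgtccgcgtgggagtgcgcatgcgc
ZNF226 (cluster F), chr19:44164850-44165072 plus strand: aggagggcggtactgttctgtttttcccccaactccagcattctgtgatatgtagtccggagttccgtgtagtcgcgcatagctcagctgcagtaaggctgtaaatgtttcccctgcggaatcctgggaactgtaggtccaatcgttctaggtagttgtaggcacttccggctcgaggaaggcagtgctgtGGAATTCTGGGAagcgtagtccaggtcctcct
ZNF234 (cluster F), chr19:44141304-44141553 plus strand: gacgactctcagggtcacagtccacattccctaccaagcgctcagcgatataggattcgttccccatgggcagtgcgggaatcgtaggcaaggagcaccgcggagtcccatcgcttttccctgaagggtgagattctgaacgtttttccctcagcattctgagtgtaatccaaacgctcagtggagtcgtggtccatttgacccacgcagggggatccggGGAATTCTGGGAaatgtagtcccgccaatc
ZNF587 (cluster I), chr19:57849609-57849856 plus strand: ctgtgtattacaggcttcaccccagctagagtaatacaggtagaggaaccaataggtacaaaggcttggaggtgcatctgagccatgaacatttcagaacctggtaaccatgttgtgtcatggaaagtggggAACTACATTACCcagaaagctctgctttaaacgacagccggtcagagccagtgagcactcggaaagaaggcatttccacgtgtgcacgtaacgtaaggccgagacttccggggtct
ZNF530 (cluster I), chr19:57599635-57599884 plus strand: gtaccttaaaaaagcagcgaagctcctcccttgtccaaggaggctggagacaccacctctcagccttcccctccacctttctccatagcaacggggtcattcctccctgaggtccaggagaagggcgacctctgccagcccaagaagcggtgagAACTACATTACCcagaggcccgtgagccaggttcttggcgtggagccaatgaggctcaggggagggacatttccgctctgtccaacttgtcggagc
ZNF675 (cluster C), chr19:23687221-23687462 minus strand: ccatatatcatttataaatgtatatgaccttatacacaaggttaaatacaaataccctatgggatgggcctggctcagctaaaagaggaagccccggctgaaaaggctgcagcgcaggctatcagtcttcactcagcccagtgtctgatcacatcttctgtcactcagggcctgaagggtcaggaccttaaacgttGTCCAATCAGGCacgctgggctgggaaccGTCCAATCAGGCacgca
ZNF431 (cluster C), chr19:21141790-21142023 plus strand: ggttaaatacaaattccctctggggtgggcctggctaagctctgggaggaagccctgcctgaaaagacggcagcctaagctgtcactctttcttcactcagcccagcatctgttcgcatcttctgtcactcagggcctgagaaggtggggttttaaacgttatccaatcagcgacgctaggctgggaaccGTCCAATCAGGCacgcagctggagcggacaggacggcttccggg
ZNF813 (cluster G), chr19:53467483-53467732 plus strand: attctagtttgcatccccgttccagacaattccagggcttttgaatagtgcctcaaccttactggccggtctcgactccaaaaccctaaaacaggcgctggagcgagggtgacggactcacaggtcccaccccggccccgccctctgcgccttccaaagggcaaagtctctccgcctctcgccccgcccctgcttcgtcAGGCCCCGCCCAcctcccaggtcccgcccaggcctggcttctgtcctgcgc
ZNF761 (cluster G), chr19:53431734-53431983 plus strand: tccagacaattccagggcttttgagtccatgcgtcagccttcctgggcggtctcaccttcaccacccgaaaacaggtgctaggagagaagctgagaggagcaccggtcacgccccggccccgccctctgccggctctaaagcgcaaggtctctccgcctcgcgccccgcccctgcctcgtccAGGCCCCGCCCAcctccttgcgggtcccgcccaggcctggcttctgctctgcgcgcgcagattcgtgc
ZNF302 (cluster D), chr19:34677428-34677638 plus strand: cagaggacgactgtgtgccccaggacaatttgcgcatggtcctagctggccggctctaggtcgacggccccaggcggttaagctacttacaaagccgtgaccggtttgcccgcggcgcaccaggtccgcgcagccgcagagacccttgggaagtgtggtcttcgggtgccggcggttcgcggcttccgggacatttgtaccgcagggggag
ZNF667 (cluster I), chr19:56477375-56477595 minus strand: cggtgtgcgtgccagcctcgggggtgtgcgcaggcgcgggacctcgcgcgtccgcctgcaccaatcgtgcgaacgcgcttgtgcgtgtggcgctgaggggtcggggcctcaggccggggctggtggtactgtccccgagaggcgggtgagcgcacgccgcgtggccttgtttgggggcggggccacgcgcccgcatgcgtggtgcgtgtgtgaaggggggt

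In ZNF234 the word of cluster F runs straight into that of cluster E, with which it shares its last letters. Among the printed stretches, CG dinucleotides were densest in ZNF667, with 30 in 221 bases, followed by ZNF567 (27 in 250), ZNF420 (24 in 235) and ZNF302 (21 in 211). The median over the full 250 bases was 16 for entries of members and 11 for all entries. Of the known motifs searched on both strands, the ETS core CCGGAAG was in 34.0% of member promoters and 10.2% of all genes, the GC box GGGCGG in 68.4% and 46.2%, and AAGATGGCG, the YY1 motif, in 2.79% and 0.784%. The TCF/LEF core CTTTGAT, the site through which beta-catenin acts in Wnt signalling, was in 1.86% of member promoters (4 genes) and in 2.75% of all genes. A match is a run of letters in this window and not a shown binding site.

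Members higher in the restored libraries outnumbered lower ones. At an adjusted p under 0.05, 19.2% of all genes tested were called in either direction, 10.4% higher and 8.77% lower, and of the 201 tested members 41 were higher (20.4%) and 10 lower (4.98%). The median log2 fold change over the tested members was 0.37, beside 0.003 over all genes, and 150 of 201 had a positive value (74.6%). Positive values were nearly as frequent in the other tested protein-coding genes of chromosome 19, at 522 of 745 (70.1%), beside 50.2% of all genes. All 4 restored values lay above all 4 parental values for 63 members and below them for 10, beside 12.7% and 11.2% of all genes. Typical shifts were small: the 41 called higher had a median of 0.80. The summed level of all members was 1781 to 1923 CPM in parental and 2067 to 2299 CPM in restored libraries. In bulk RNA, fewer cells of a kind and less RNA per cell cannot be told apart.

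Single libraries weighed on these counts, and on those over all genes. Without restored replicate 4 the members called higher numbered 11 of 200 fitted, a share close to the 5.55% of all genes. Without parental replicate 2 they numbered 16 of 201 (5.83% of all genes), and without restored replicate 3 they numbered 21 of 200 (6.07%). Without parental replicate 3 they numbered 23 of 204 (7.69%), and without parental replicate 4 they numbered 31 of 202 (8.01%). Without restored replicate 2 they numbered 31 of 204 (8.11%), and without parental replicate 1 they numbered 52 of 205 (13.1%). Those called lower numbered 20 of 200 without restored replicate 1, a share close to the 11.0% of all genes. They numbered 5 of 204 without parental replicate 3 (6.34% of all genes), 5 of 202 without parental replicate 4 (6.73%) and 5 of 204 without restored replicate 2 (6.48%). The count was 2 of 201 without parental replicate 2 (4.63%), 2 of 200 without restored replicate 4 (4.16%) and 1 of 200 without restored replicate 3 (4.60%). The 10 members ZNF101, ZNF146, ZNF226, ZNF260, ZNF345, ZNF404, ZNF506, ZNF527, ZNF552 and ZNF585B stayed called higher in all 8 fits that leave out a library, and ZNF544 stayed called lower. At an adjusted p under 0.01, which 3.96% of all genes passed higher and 2.79% lower, 5 of 201 members were higher and 0 lower by edgeR. At that threshold DESeq2 called 7 of 201 members lower, beside 7.56% of all genes, and limma-voom 1 of 201, beside 3.17%. At an unadjusted p under 0.05 by edgeR 18 of 201 members were lower, beside 16.4% of all genes.

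**Figure D1:**
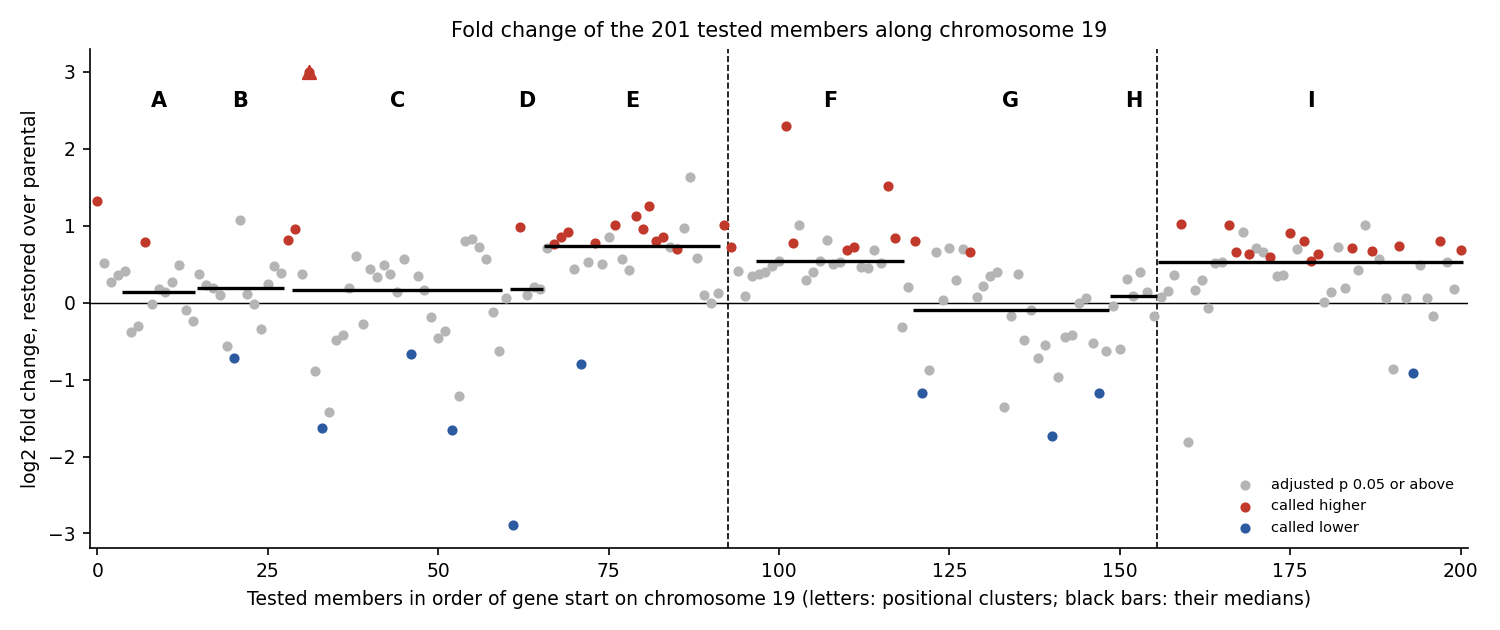
Log2 fold change (restored over parental) of the 201 tested members, in the order of their starts on chromosome 19. Colours mark members called higher or lower, black bars the medians of the lettered clusters, dashed lines the split points, and the triangle ZNF506, drawn at the frame's edge; clusters E, F and I lie mostly above 0 and cluster G straddles it.

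Cluster E, from 36.18 to 37.74 Mb, had the highest median of the lettered clusters. All 26 of its members were tested, the median log2 fold change was 0.74 and 24 values were positive. Called higher were 11 members (42.3%) and lower 1 (3.85%), beside 10.4% and 8.77% of all genes. Library by library, the median difference from each gene's parental mean ran from -0.36 to 0.12 in the parental libraries and was 0.58, 0.75, 0.72 and 0.92 in restored replicates 1 to 4, so the groups did not overlap. Other tested protein-coding genes within this stretch numbered 4, of which 2 were called higher, with a median of 0.77.

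ZNF585B (chr19:37181579-37218153, minus strand) had the smallest p in the cluster. The parental libraries, listed here and below from replicate 1 to replicate 4, held 4.0, 3.86, 4.63 and 3.72 CPM of it, and the restored libraries, in the same order, held 7.60, 9.91, 9.26 and 11.8 CPM. Every restored value lay above every parental one, with means of 4.05 ± 0.402 and 9.65 ± 1.75 CPM (SD, n = 4 each). The log2 fold change was 1.25 (SE 0.20, adjusted p = 0.0021 by edgeR). Its protein is 94.5% identical to that of the neighbour ZNF585A, so reads may have been shared between the pair. ZNF585A was at 1.78, 1.08, 1.16 and 1.79 CPM in parental and 2.65, 2.81, 2.91 and 2.93 CPM in restored libraries, with a log2 fold change of 0.96 (adjusted p = 0.0308). An exon of ZNF585B also overlaps one of ZNF383 on the opposite strand, and the strand setting of the counting is not given in the sources used here.

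ZNF260 (chr19:36510695-36528660, minus strand), a short protein made almost wholly of fingers, was at 6.59, 9.82, 9.98 and 9.88 CPM in parental and 17.9, 14.4, 15.5 and 20.8 CPM in restored libraries. The groups stood well apart, with parental replicate 1 the lowest of all, and the log2 fold change was 0.92 (SE 0.19, adjusted p = 0.0082). ZNF345 (chr19:36850361-36913029, plus strand) was at 2.49, 1.96, 2.41 and 3.01 CPM in parental and 4.91, 5.70, 4.68 and 4.72 CPM in restored libraries. Its groups did not overlap either, and the log2 fold change was 1.02 (SE 0.22, adjusted p = 0.0114).

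ZNF146 (chr19:36214602-36238774, plus strand) encodes a protein of fingers alone and was the most abundant member of the cluster, at 13.0 CPM per kb of exon. It was at 28.9, 42.2, 50.2 and 38.7 CPM in parental and 67.6, 65.0, 57.5 and 80.6 CPM in restored libraries. The lowest restored value exceeded the highest parental one, and the log2 fold change was 0.76 (SE 0.17, adjusted p = 0.0134). Its exons overlap those of ZNF565 on the opposite strand. ZNF527 was at 3.74 to 5.08 CPM in parental and 7.14 to 9.37 CPM in restored libraries, with a log2 fold change of 0.85 (adjusted p = 0.0125).

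The 2 cluster E genes with printed promoters were picked by smallest p among its carriers. That both were called higher therefore says nothing about the word. ZNF420 was at 1.33, 2.03, 2.14 and 2.86 CPM in parental and 3.52, 4.71, 4.48 and 5.74 CPM in restored libraries, and ZNF567 at 3.38, 4.47, 3.65 and 4.44 against 7.71, 6.11, 6.55 and 6.95 CPM. Neither pair of groups overlapped, and the log2 fold changes were 1.13 (SE 0.28, adjusted p = 0.0186) and 0.78 (SE 0.20, adjusted p = 0.0205). Both calls were lost without restored replicate 3 or 4, that of ZNF420 also without parental replicate 2 and that of ZNF567 also without parental replicate 3, with adjusted p between 0.0505 and 0.0681 and between 0.0524 and 0.0585. Within the cluster, the 11 carriers of GGGAAATGTAGT had a median of 0.76 with 4 called higher, and the 13 tested members whose promoter lacks the word had a median of 0.80 with 7 called higher and 1 lower. Carriers on the whole chromosome numbered 21, with a median of 0.73, 20 positive values and 8 called higher.

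Of the 2 cluster E members with a negative value, ZNF607 was at -0.01 and ZNF382 was called lower. ZNF382 (chr19:36604817-36634113, plus strand), a KRAB repressor described in other tumours as a growth suppressor, was at 4.81, 6.84, 5.88 and 6.08 CPM in parental and 3.34, 3.63, 3.55 and 3.16 CPM in restored libraries. All restored values were below all parental ones, and the log2 fold change was -0.79 (SE 0.20, adjusted p = 0.021). The call was lost without parental replicate 2, restored replicate 3 or restored replicate 4, with adjusted p of 0.0574 to 0.0771. Its exons overlap those of ZNF529 on the opposite strand.

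Cluster F, from 43.53 to 45.07 Mb, had 22 tested members with a median of 0.54, of which 21 were positive. Called higher were 6 (27.3%) and lower 0, beside 10.4% and 8.77% of all genes. Library medians of the restored group ran from 0.47 to 0.69. ZNF226 (chr19:44165073-44178381, plus strand), whose promoter is printed above, was at 14.2, 12.7, 11.8 and 14.8 CPM in parental and 21.8, 20.5, 21.7 and 24.3 CPM in restored libraries. The groups did not overlap, and the log2 fold change was 0.72 (SE 0.14, adjusted p = 0.0058).

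ZNF404 (chr19:43872363-43901385, minus strand) showed the largest fold change of the cluster, with 3.11, 1.08, 0.624 and 0.429 CPM in parental and 4.77, 9.49, 4.73 and 6.52 CPM in restored libraries. The parental libraries differed widely among themselves, parental replicate 1 being the highest, yet every restored library was higher still. The log2 fold change was 2.29 (SE 0.52, adjusted p = 0.0126) and ran from 1.99 to 3.12 when single libraries were left out. An annotated long non-coding RNA overlaps its exons on the same strand, so reads may have been shared. ZNF180 (chr19:44474428-44500524, minus strand) was at 4.98, 6.91, 7.39 and 6.66 CPM in parental and 11.2, 9.25, 11.9 and 14.1 CPM in restored libraries, without overlap. Its log2 fold change was 0.84 (SE 0.20, adjusted p = 0.0145), and the call was lost without restored replicate 4 (adjusted p = 0.0535).

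ZNF234, the direct neighbour of ZNF226 and its nearest paralog at 61.9% identity, was at 3.83, 4.2, 3.74 and 5.01 CPM in parental and 7.43, 6.44, 6.26 and 6.87 CPM in restored libraries. The groups did not overlap, and the log2 fold change was 0.68 (SE 0.19, adjusted p = 0.0306). ZNF45 and ZNF229 were the other members called higher, with log2 fold changes of 0.77 and 1.52, ZNF229 at only 1.72 CPM in the restored mean. Calls were lost in 6 of the 8 leave-one-out fits for ZNF234 (all but those without parental replicates 1 and 4, adjusted p 0.0509 to 0.0838), in 5 for ZNF45 (adjusted p 0.0597 to 0.142) and in 5 for ZNF229 (adjusted p 0.0579 to 0.0915), each time including the fits without parental replicates 2 and 3 and restored replicates 3 and 4. Restored replicate 1 was needed for ZNF45 and restored replicate 2 for ZNF229. The 9 carriers of GGAATTCTGGGA in the cluster had a median of 0.54, with values between 0.39 and 0.82, and the 11 tested members whose promoter lacks the word had a median of 0.52.

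Cluster I, the run of genes from 56.09 Mb to the end of the long arm, holds all 45 tested members above 56 Mb. Its median was 0.52, with 40 positive values and restored library medians between 0.36 and 0.58. Called higher were 14 members (31.1%) and lower 1 (2.22%), beside 10.4% and 8.77% of all genes. ZNF552 (chr19:57803841-57814913, minus strand) was at 7.12, 7.65, 9.0 and 6.66 CPM in parental and 12.1, 12.5, 12.2 and 13.0 CPM in restored libraries. The restored values were nearly equal among themselves and all above the parental ones, and the log2 fold change was 0.71 (SE 0.16, adjusted p = 0.0123). An exon of ZNF586 overlaps it on the opposite strand.

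The next 3 by p were of similar size. ZNF550 was at 4.18, 5.35, 5.79 and 4.94 CPM in parental and 10.0, 7.10, 8.57 and 12.2 CPM in restored libraries, with a log2 fold change of 0.91 (SE 0.21, adjusted p = 0.0155). ZNF543 was at 2.22, 3.45, 2.49 and 3.86 CPM in parental and 5.78, 6.19, 5.27 and 7.26 CPM in restored libraries, with a log2 fold change of 1.02 (SE 0.24, adjusted p = 0.0156). ZNF583 was at 3.03, 2.98, 5.52 and 4.65 CPM in parental and 6.56, 8.26, 8.08 and 9.88 CPM in restored libraries, with a log2 fold change of 1.02 (SE 0.25, adjusted p = 0.018). In none of these 3 genes did the groups overlap. All 3 calls were lost without restored replicate 4, with adjusted p of 0.056, 0.0567 and between 0.0619 and 0.0641, the last also without parental replicate 2.

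The printed promoters of cluster I belong to ZNF587 and ZNF530. ZNF587 was at 14.4, 12.1, 11.6 and 9.66 CPM in parental and 17.7, 16.7, 18.9 and 22.8 CPM in restored libraries, and its log2 fold change was 0.68 (adjusted p = 0.0198). Its protein is 98.1% identical to that of ZNF417, so its counts are uncertain. ZNF530 was at 3.11, 3.59, 2.85 and 4.51 CPM in parental and 7.93, 5.28, 5.72 and 5.70 CPM in restored libraries, and its log2 fold change was 0.81 (adjusted p = 0.0338). Neither gene's groups overlapped. Each call was lost in 5 of the 8 leave-one-out fits, for ZNF587 without parental replicates 2, 3 and 4 and restored replicates 3 and 4 (adjusted p 0.0510 to 0.0692) and for ZNF530 without parental replicates 2 and 3 and restored replicates 1, 3 and 4 (adjusted p 0.0679 to 0.0866). The 8 tested carriers of AACTACATTACC in the cluster had a median of 0.69 with 2 called higher, and the 34 tested members whose promoter lacks it had a median of 0.36 with 10 called higher and 1 lower.

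ZNF544 (chr19:58228594-58277495, plus strand) was the only member of cluster I called lower; the other 4 negative values ran from -1.81, in ZNF667, to -0.07. It was at 8.54, 14.2, 13.8 and 13.3 CPM in parental and 5.85, 6.77, 6.70 and 7.18 CPM in restored libraries. Parental replicate 1 was well below the other parental libraries but still above every restored one, and the log2 fold change was -0.91 (SE 0.20, adjusted p = 0.0101). A tested long non-coding RNA at 11.1 CPM overlaps its exons on the opposite strand.

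**Figure D2:**
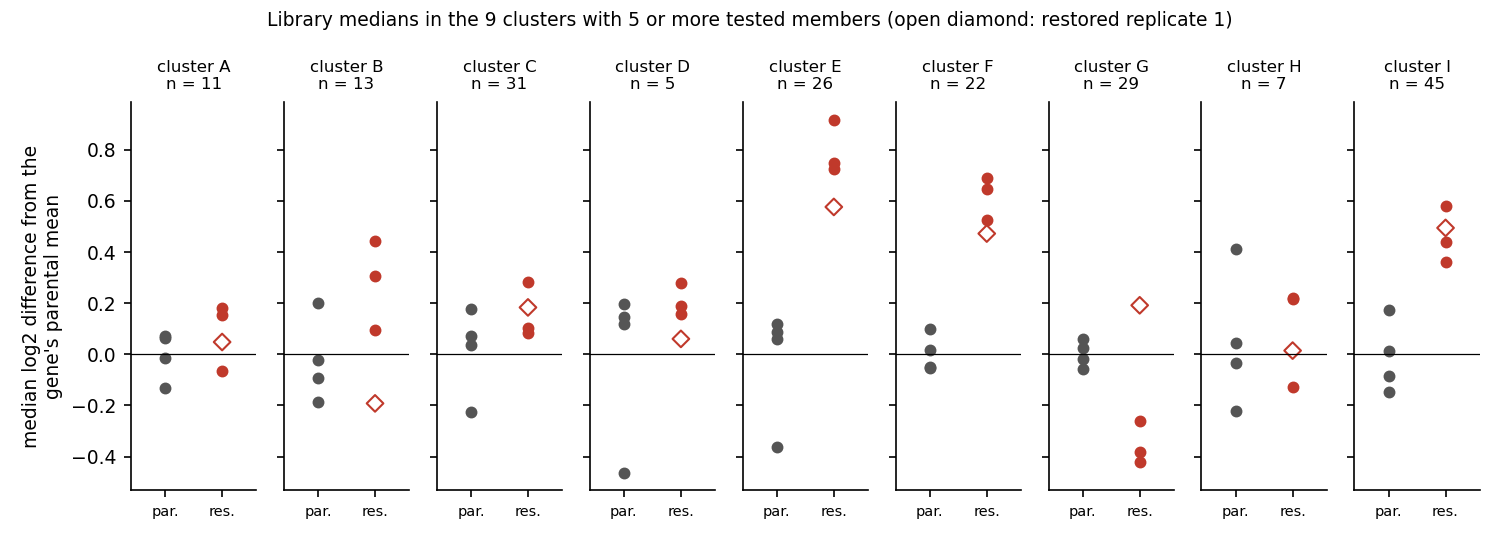
Median over the tested members of each lettered cluster of the log2 difference from the gene's parental mean, 1 point per library, with parental and restored libraries side by side. In clusters E, F and I all 4 restored libraries lie above all 4 parental ones; in cluster G restored replicate 1 (open diamond) is at 0.19 and the other restored libraries between -0.42 and -0.26.

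Cluster C, from 19.67 to 24.03 Mb, is the primate-expanded group next to the centromere that holds ZNF91 and ZNF93, known for silencing retroelements. Its 31 tested members split, with a median of 0.17, 17 positive and 14 negative values. Called higher were 2 (6.45%) and lower 3 (9.68%), beside 10.4% and 8.77% of all genes, so neither share stood out. ZNF101 (chr19:19668796-19683509, plus strand), at its edge, was at 6.05, 5.82, 5.97 and 6.08 CPM in parental and 9.54, 12.5, 11.7 and 12.9 CPM in restored libraries. The parental values were almost identical and all restored ones higher, and the log2 fold change was 0.96 (SE 0.17, adjusted p = 0.0035).

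ZNF506 (chr19:19785839-19821751, minus strand) was nearly silent in the parental libraries, with 0.267, 0, 0 and 0.0716 CPM, and was at 2.12, 2.15, 0.936 and 2.03 CPM in the restored ones. No parental library held more than 3 counts. Against a floor of 3 counts in each parental library its mean was at least 7.59-fold higher in the restored group (adjusted p = 0.0017). A tested long non-coding RNA at 2.08 CPM overlaps its exons on the opposite strand.

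Of the 3 lower members of cluster C, ZNF429 (chr19:21496682-21556270, plus strand) was the most abundant, at 20.7, 15.6, 17.0 and 16.5 CPM in parental and 8.86, 12, 10.0 and 13.1 CPM in restored libraries. Its groups did not overlap, the log2 fold change was -0.67 (SE 0.17, adjusted p = 0.0224), and the call was lost without restored replicate 3 (adjusted p = 0.0725). ZNF682 (chr19:19997058-20039506, minus strand) was at 2.76, 3.59, 2.67 and 1.93 CPM in parental and 1.61, 0.413, 0.493 and 0.859 CPM in restored libraries, with a log2 fold change of -1.63 (SE 0.42, adjusted p = 0.0214). Restored replicate 1 was the restored value closest to the parental range, and without it the log2 fold change was -2.15. The call was lost without parental replicate 2, restored replicate 3 or restored replicate 4 (adjusted p 0.0662 to 0.0697).

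ZNF98 (chr19:22391019-22532485, minus strand) was at 0.801, 3.11, 3.39 and 2.5 CPM in parental and 1.29, 0.578, 0.690 and 0.468 CPM in restored libraries. Here the groups overlapped, parental replicate 1 lying below restored replicate 1, and the log2 fold change was -1.66 (SE 0.47, adjusted p = 0.0303). Its protein is 97.9% identical to that of ZNF492, so reads could be shared; ZNF492 itself had a log2 fold change of -1.22 (adjusted p = 0.0808). The ZNF98 call held without parental replicate 1 or restored replicate 1 and was lost without each of the other 6 libraries (adjusted p 0.0591 to 0.0995).

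The carriers of the cluster's word showed no common direction. ZNF675 was at 7.56, 14.0, 16.4 and 8.95 CPM in parental and 19.9, 16.9, 17.8 and 22.7 CPM in restored libraries, a log2 fold change of 0.72 (adjusted p = 0.0553). ZNF431 was at 8.45, 7.38, 8.55 and 6.08 CPM against 10.6, 11.6, 10.0 and 10.4 CPM, a log2 fold change of 0.48 (adjusted p = 0.0723). In both the restored values lay above the parental ones, and neither passed the threshold. Over the 16 tested carriers of GTCCAATCAGGC in cluster C the median was 0.34, and over the 10 tested members whose promoter lacks it -0.04.

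ZNF91, which binds SVA and related retroelements, varied widely between libraries, at 48.1, 30.2, 29.3 and 17.7 CPM in parental and 33.4, 95.5, 45.8 and 48.7 CPM in restored libraries. Its groups overlapped, with means of 31.3 ± 12.6 and 55.9 ± 27.3 CPM (SD, n = 4 each) and a log2 fold change of 0.83 (SE 0.34, adjusted p = 0.114). ZNF93, which binds LINE-1 elements, was not tested and reached at most 0.273 CPM in any library. ZNF274, which binds the coding ends of other zinc finger genes and recruits SETDB1 there, was at 25.2, 29.99, 33.2 and 39.2 CPM in parental and 39.7, 32.4, 27.9 and 32.8 CPM in restored libraries, with a log2 fold change of 0.06 (SE 0.17, adjusted p = 0.834).

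Cluster G, from 51.57 to 53.52 Mb, had the lowest median of the lettered clusters, followed by cluster H beside it, at 0.09. Of the 39 members of cluster G 29 were tested, with a median of -0.09. Called higher were 2 (6.9%) and lower 3 (10.3%), beside 10.4% and 8.77% of all genes, so neither share stood out. The restored libraries were at odds: the cluster median was 0.19 in restored replicate 1 and -0.42, -0.26 and -0.38 in replicates 2 to 4, beside -0.06 to 0.06 in the parental libraries. In the fit without restored replicate 1, in which 11.0% of all genes were called higher and 11.0% lower, the cluster's median was -0.47, with 9 members called lower and 2 higher. Over all members the same fit called 20 lower and 37 higher, with a median of 0.39.

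ZNF468 (chr19:52838008-52890375, minus strand) shows the pattern at its clearest. It was at 7.83, 9.68, 8.64 and 8.23 CPM in parental and 6.64, 1.24, 0.936 and 1.17 CPM in restored libraries. Restored replicate 1 was just under the parental range and the other 3 were several-fold below it. The log2 fold change was -1.74 (SE 0.55, adjusted p = 0.047), and without restored replicate 1 it was -2.95 (adjusted p = 3.86e-05). Here and below, genes are shown without that library because it stands apart in them, so a smaller p follows from the choice. The call was lost without each of parental replicates 2, 3 and 4 and restored replicates 2, 3 and 4 (adjusted p 0.0758 to 0.129). Its exons overlap those of ZNF28 on the same strand, so reads may have been shared.

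ZNF880, ZNF28 and ZNF83 were split in the same manner and were named after their values were seen. ZNF880 was at 3.38, 2.91, 2.76 and 3.36 CPM in parental and 2.58, 0.660, 0.690 and 0.742 CPM in restored libraries, with an adjusted p of 0.0531 on all libraries and a log2 fold change of -2.13 (adjusted p = 0.000774) without restored replicate 1. ZNF28 was at 9.88, 10.5, 15.7 and 12.2 CPM in parental and 16.1, 5.53, 5.17 and 5.70 CPM in restored libraries. ZNF83 was at 14.1, 10.8, 12.4 and 9.52 CPM in parental and 14.7, 6.77, 5.57 and 6.09 CPM in restored libraries. In both of these, restored replicate 1 was the highest library of all 8 while the other restored libraries were the lowest 3; without it the log2 fold changes were -1.14 (adjusted p = 0.0046) for ZNF28 and -0.93 (adjusted p = 0.0093) for ZNF83.

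ZNF813 (chr19:53467735-53496255, plus strand), whose promoter is printed above, was at 4.98, 4.13, 5.08 and 3.86 CPM in parental and 2.91, 2.31, 0.936 and 1.83 CPM in restored libraries. All restored values were below the parental ones, with a log2 fold change of -1.17 (SE 0.33, adjusted p = 0.0294). Its call was lost without parental replicate 2, parental replicate 3, restored replicate 3 or restored replicate 4 (adjusted p 0.0608 to 0.0894). The other printed gene, ZNF761, was at 27.8, 15.8, 18.7 and 14.8 CPM in parental and 18.2, 12.4, 9.95 and 12.8 CPM in restored libraries, with overlapping groups and a log2 fold change of -0.52 (adjusted p = 0.153).

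ZNF577 (chr19:51804816-51890950, minus strand) was at 0.801, 1.69, 1.78 and 1.57 CPM in parental and 0.969, 0.413, 0.591 and 0.546 CPM in restored libraries. Its groups overlapped through replicate 1 of each, and the log2 fold change was -1.17 (SE 0.37, adjusted p = 0.0482). Without restored replicate 1 it was -1.47 (adjusted p = 0.0231), and the call was lost without each of parental replicates 2, 3 and 4 and restored replicates 2, 3 and 4 (adjusted p 0.097 to 0.138). The 2 members of the cluster called higher were ZNF175, from 3.12 ± 0.158 to 5.43 ± 1.03 CPM, and ZNF841, from 8.39 ± 0.645 to 13.3 ± 2.40 CPM (SD, n = 4 each). Both calls were lost without parental replicates 2 and 3 and restored replicate 4, with adjusted p up to 0.0933 for ZNF175, which also needed restored replicate 3, and up to 0.0870 for ZNF841, which also needed restored replicate 2.

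**Figure D3:**
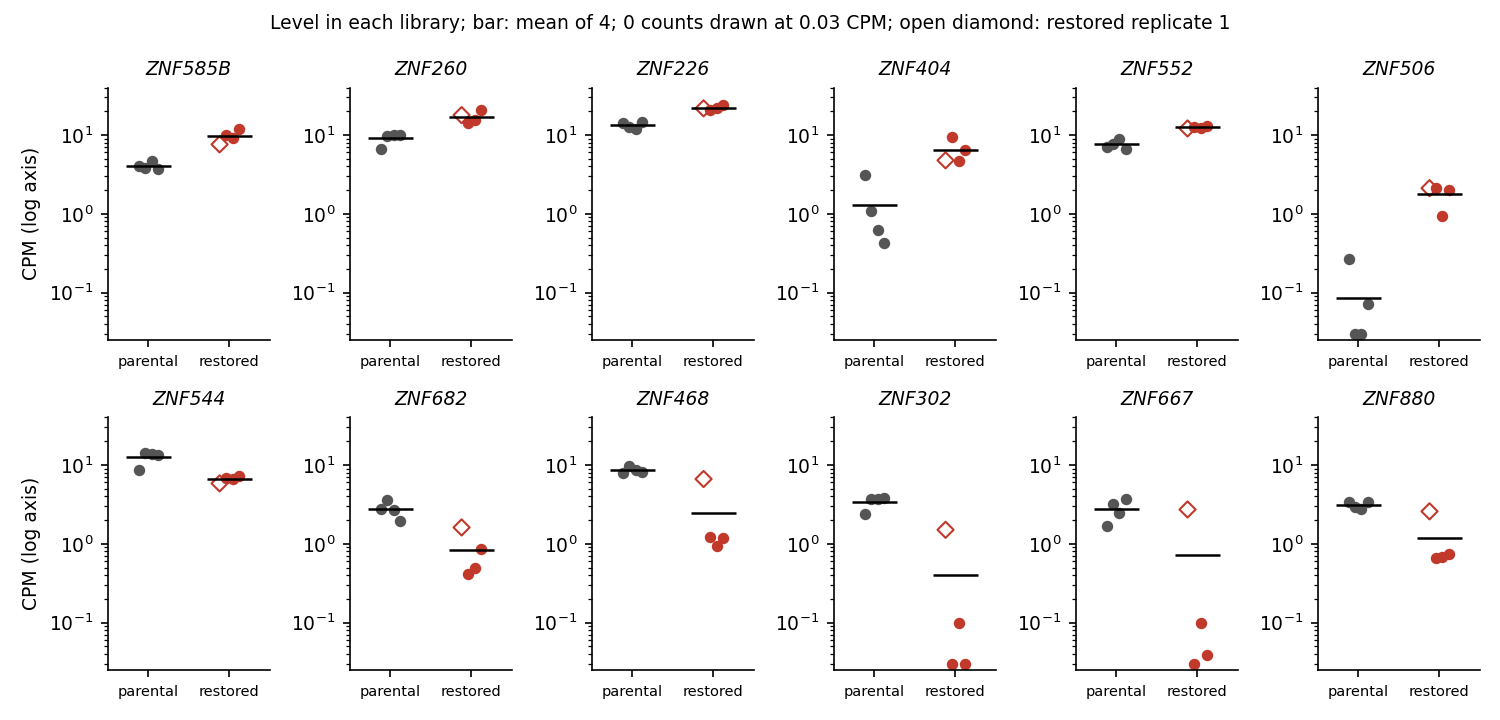
Level of 12 members in each library, in CPM on a log axis, with parental and restored libraries side by side and bars at the group means; 0 counts are drawn at 0.03 CPM. The 6 members ZNF585B, ZNF260, ZNF226, ZNF404, ZNF552 and ZNF506 are higher in all 4 restored libraries, whereas in ZNF468, ZNF302, ZNF667 and ZNF880 restored replicate 1 (open diamond) is well above the other restored libraries.

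Across the chromosome, restored replicates 2 to 4 all lay below the 4 parental libraries for 24 members, or 11.9%, beside 16.4% of all genes. In 14 of these 24 (58.3%), restored replicate 1 did not lie below the parental libraries, beside 743 of 2350 (31.6%) among all genes. Cluster G held 12 of the 24 and 9 of the 14. In the other direction, replicates 2 to 4 all lay above the parental libraries for 81 members, or 40.3%, beside 16.5% of all genes, and in 18 of these (22.2%) restored replicate 1 did not, beside 547 of 2362 (23.2%) among all genes. On the log2(CPM + 0.5) scale, restored replicate 1 differed by more than 1 from the mean of the other restored libraries in 15 members, 12 of them higher in replicate 1 (7 in cluster G) and 3 lower.

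**Figure D4:**
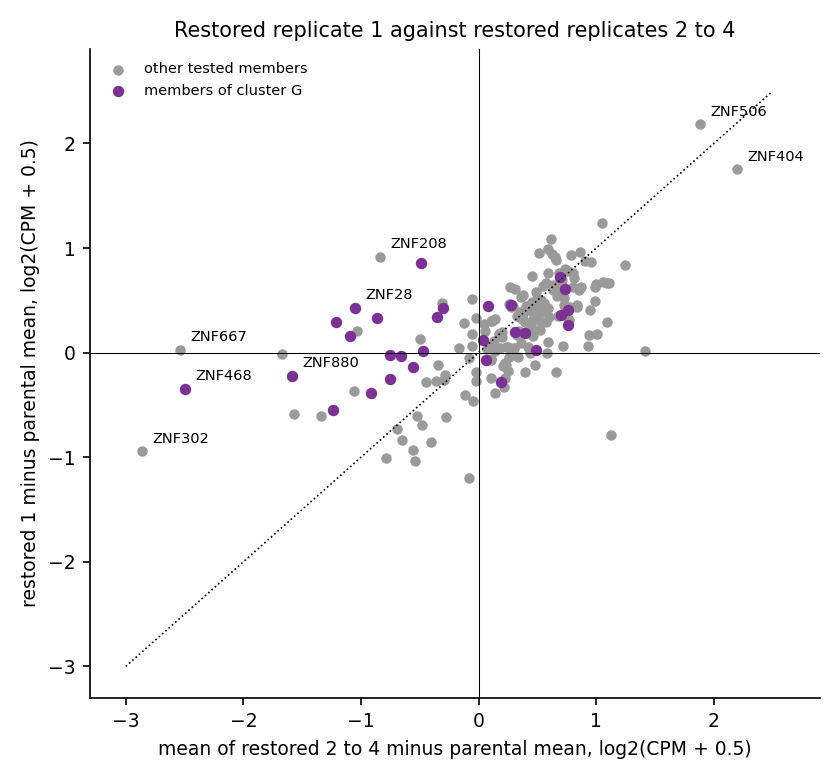
Difference from the parental mean in restored replicate 1 (vertical) against the mean of restored replicates 2 to 4 (horizontal), in log2(CPM + 0.5), 1 point per tested member, with the dotted line where both are equal. The 15 members off the line by more than 1 are mostly above it, and 7 of the 12 above it belong to cluster G.

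Outside cluster G the split was widest in ZNF667 and ZNF302, whose promoters are printed above. ZNF302 (chr19:34677639-34686397, plus strand) in cluster D was at 2.40, 3.72, 3.65 and 3.86 CPM in parental and 1.51, 0, 0.0986 and 0 CPM in restored libraries. All restored values were below the parental ones, with a log2 fold change of -2.89 (SE 0.88, adjusted p = 0.0421), and without restored replicate 1 the adjusted p was 0.000165. The call was lost without each of parental replicates 2, 3 and 4 and restored replicates 2, 3 and 4 (adjusted p 0.0755 to 0.114). ZNF667 (chr19:56439325-56478065, minus strand) in cluster I was at 1.69, 3.18, 2.49 and 3.65 CPM in parental and 2.73, 0, 0.0986 and 0.0390 CPM in restored libraries. Restored replicate 1 lay inside the parental range, the adjusted p was 0.209 on all libraries and 0.00023 without that library, and the antisense gene ZNF667-AS1 overlaps it.

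ZNF181, the neighbour of ZNF302 and its paralog at 70.7% protein identity, moved the other way. It was at 3.03, 6.57, 8.55 and 6.15 CPM in parental and 9.40, 11.5, 11.8 and 15.4 CPM in restored libraries, without overlap, and its log2 fold change was 0.98 (adjusted p = 0.0335). The call was lost without parental replicates 2 and 4 and restored replicates 2, 3 and 4 (adjusted p 0.0589 to 0.111). The 5 members of cluster D had a median of 0.17.

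The other lettered clusters had medians between 0.09 and 0.19. Cluster A (7.07 to 9.75 Mb, 11 tested) had a median of 0.13 and 1 member called higher, ZNF558 (9.09%, beside 10.4% of all genes). Cluster B (11.48 to 12.61 Mb, 13 tested) had a median of 0.19 and 1 called lower, ZNF700 (7.69%, beside 8.77% of all genes). Cluster H (55.48 to 55.64 Mb, 7 tested) ran from -0.60 to 0.40 with a median of 0.09. The ZNF558 call was lost in 5 leave-one-out fits, without parental replicates 2, 3 and 4 and restored replicates 2 and 4 (adjusted p 0.0515 to 0.0627), and that of ZNF700 in all but the one without parental replicate 1 (adjusted p 0.0543 to 0.0735). Among the shorter runs, which carry no letter, the 4 tested members from ZNF554 to ZNF77 at the tip of the short arm were all positive, with a median of 0.44 and ZNF554 called higher. The pair ZNF780B and ZNF780A had a median of 0.57, with ZNF780B called higher, and the pair ZNF574 and ZNF526 a median of 0.21. Of the runs of 1 tested member, ZNF546 (1.01) and ZNF333 (0.82) were called higher, whereas ZNF473 (0.21) and ZNF507 (0.06) were not called. ZNF546 starts under 1 Mb from ZNF780B and is set apart from it only by the split at 40 Mb. These calls were lost in 7 leave-one-out fits for ZNF554 (all but the one without restored replicate 1), in 6 for ZNF333 (all but those without replicate 1 of either group), in 3 for ZNF546 (without parental replicate 2 and restored replicates 3 and 4, adjusted p 0.0516 to 0.0723) and in 3 for ZNF780B (without parental replicates 2 and 4 and restored replicate 4, adjusted p 0.0557 to 0.0722).

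By segment, the medians were 0.36 below 40 Mb, 0.35 from 40 to 56 Mb and 0.52 above 56 Mb. Other tested protein-coding genes there had medians of 0.17, 0.19 and 0.14. Below 40 Mb, 18 members were called higher (19.4%) and 6 lower (6.45%), beside 13.3% and 4.14% of those other genes. From 40 to 56 Mb, 9 members were higher (14.3%) and 3 lower (4.76%), beside 16.5% and 2.81%. Above 56 Mb, 14 were higher (31.1%) and 1 lower (2.22%), beside 0 and 0 of 13 other genes. Over all genes tested, 10.4% were higher and 8.77% lower. The tested members just inside and outside the first split were ZNF546 (chr19:39984134-40021041), with a log2 fold change of 1.01, and ZNF780B (chr19:40028260-40056209), with 0.72. ZNF546 was at 3.20, 3.59, 4.45 and 4.22 CPM in parental and 4.81, 8.83, 7.54 and 10.1 CPM in restored libraries, and ZNF780B at 7.65, 9.41, 11.4 and 7.44 against 15.4, 13.5, 13.2 and 17.3 CPM, so both were higher in all restored libraries and the split ran between like genes. Across the second split the neighbours were ZNF581 (chr19:55635459-55645622), with -0.18, and ZNF787 (chr19:56087366-56121280), with 0.07.

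Among the most abundant members of each segment, most did not pass the test. On the scale of mean CPM per kb, ZNF428 stood at 25.2, ZNF787 at 24.2, ZNF579 at 15.8, ZNF581 at 13.7, ZNF146 at 13.0, ZNF444 at 12 and ZNF358 at 7.53, beside a median of 1.14 over the tested members and 4.36 over all genes tested. ZNF428, with a single finger and no KRAB pattern, was at 51.4, 37.0, 31.8 and 31.6 CPM in parental and 40.03, 69.8, 55.7 and 45.4 CPM in restored libraries, with overlapping groups and a log2 fold change of 0.47 (adjusted p = 0.137). ZNF579 was at 95.4, 55.7, 44.6 and 56.2 CPM in parental and 39.6, 47.7, 44.6 and 34.8 CPM in restored libraries, with a log2 fold change of -0.60 (adjusted p = 0.0778). Of these 7, only ZNF146 passed the test.

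Protein and gene features went along with the fold change weakly. Over the 201 tested members, which share the same 8 libraries, Spearman's correlation of the log2 fold change was -0.02 with GC content, 0.05 with exonic length and 0.07 with the number of fingers. Position was a closer match: the correlation with the next tested member of the same cluster was 0.41 (n = 185), and neighbours can share reads as well as promoters. Of 45 members whose closest paralog on the chromosome was at least 70% identical and tested, 33 had the same sign as that paralog, and the correlation was 0.25. Since 150 of the 201 members had a positive value, many such pairs share a sign in any case. Members with the KRAB pattern (167 tested) had a median of 0.41, with 34 called higher (20.4%) and 10 lower (5.99%). Those without (34 tested) had a median of 0.18, with 7 called higher (20.6%) and 0 lower, so the shares called higher were alike. Over all genes 10.4% were called higher and 8.77% lower. Exons overlapped another gene in 114 tested members. The other 87 had a median of 0.34, with 18 called higher (20.7%) and 3 lower (3.45%).

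The repression machinery that KRAB proteins recruit did not move in one direction. Of 31 cofactors tested, 2 were called higher (6.45%, beside 10.4% of all genes) and 4 lower (12.9%, beside 8.77%). Their median was 0.02. TRIM28, whose gene lies at the far end of chromosome 19, was at 421, 440, 413 and 581 CPM in parental and 513, 454, 547 and 453 CPM in restored libraries, with overlapping groups and a log2 fold change of 0.08 (SE 0.15, adjusted p = 0.72). SETDB1 had a log2 fold change of -0.13 (SE 0.12, adjusted p = 0.497), with parental values of 34.9 to 44.5 CPM and restored values of 34.4 to 39.0 CPM.

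The DNA methyltransferase DNMT3A was at 27.9, 40.3, 46.4 and 35.1 CPM in parental and 21.0, 17.6, 19.7 and 21.8 CPM in restored libraries, all of them lower, and its log2 fold change was -0.90 (SE 0.17, adjusted p = 0.0048). CBX3, the HP1 gamma protein, was at 147, 170, 173 and 157 CPM in parental and 118, 101, 98.9 and 111 CPM in restored libraries. TRIM33, a relative of TRIM28, was at 45.2, 40.8, 35.7 and 32.3 CPM in parental and 26.1, 23.8, 18.2 and 20.5 CPM in restored libraries. In both, no restored value reached the parental range, and the log2 fold changes were -0.59 (adjusted p = 0.0056) for CBX3 and -0.80 (adjusted p = 0.0070) for TRIM33. TRIM24, another relative, rose by 1.05 (adjusted p = 0.0081). HDAC1 (-0.38, adjusted p = 0.0358) and MORC3 (0.57, adjusted p = 0.0436) were also called, and both calls were lost without parental replicates 2, 3 and 4 and restored replicates 2 and 4, that of HDAC1 also without restored replicate 3 and that of MORC3 without restored replicate 1, with adjusted p of up to 0.111 and 0.126.

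Other genes give the setting. The 745 other tested protein-coding genes of chromosome 19 had a median of 0.18, with 105 called higher (14.1%) and 27 lower (3.62%). ZNF genes on other chromosomes, 214 tested of 262, had a median of -0.02, with 10 called higher (4.67%) and 9 lower (4.21%). These shares come from the same comparison that chose the family and are given as descriptions.

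The 45 members that were not tested lay low in every library, the highest single value being 1.53 CPM, in ZNF69. Of these, 24 lay below 40 Mb, 14 between the splits and 7 above 56 Mb, and ZNF177, ZNF491, ZNF536, ZNF541, ZNF835 and ZNF154 had 0 counts in all 8 libraries. A count of 3 corresponded to 0.108 to 0.267 CPM, depending on the library, so changes in genes below that level were not detectable at this depth.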

How the data were processed

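RNA of 8 libraries was sequenced as mRNA, per the labels' protocols, and the values used are raw counts per gene as the authors deposited them. The submitters' processing notes name bcl2fastq, fastp 0.23.1, STAR 2.7.4 and GRCh38; the counting program, annotation and strand setting are not given in the sources used here. Groups and replicate numbers come from the titles. Of 58206 identifiers, 57943 were found in GENCODE 29, from which positions and overlaps were taken. In R 4.3.3, edgeR 4.0.16 kept genes by filterByExpr (minimum count 10, minimum total 15), scaled by TMM and ran the two-sided quasi-likelihood test on all 14289 genes kept, with Benjamini-Hochberg adjustment and a threshold of 0.05. CPM uses the scaled totals. The fits were tested on simulated counts. Alternatives included DESeq2 1.42.0, limma-voom (limma 3.58.1), other scalings and filters, a replicate block, a GC and length offset, and leaving out each library. The members and lists were chosen with earlier results of these data known. Genes named by rule are, per segment, up to 4 higher and 4 lower with the smallest p (adjusted p under 0.05, mean of at least 1 CPM) and the 2 highest in CPM per kb; the members beside each split; ZNF91, ZNF93 and ZNF274; TRIM28, SETDB1 and the 3 cofactors with the smallest p; and members at 3 counts or fewer in 1 whole group. Other genes were named after their values or promoters were seen. Promoter words were searched in the RefSeq table of GRCh38.p14, where the bases after the start lay in a GENCODE transcript of the same orientation for 218 of 263 entries and in the opposite one for 0.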

Additional observations from a re-analysis of the deposited data

Results flagged for a closer look

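In 5 of 74 groups of 4 libraries examined for the 37 named genes, 1 library stood far from the other 3 by Dixon's ratio of gap to range; chance alone flags about 1 in 20 such groups. ZNF260 was at 6.59 CPM in parental replicate 1 and at 9.82 to 9.98 CPM in the other parental libraries. ZNF544 was at 8.54 CPM in the same library and at 13.3 to 14.2 CPM in the others. ZNF468 was at 6.64 CPM in restored replicate 1 and at 0.936 to 1.24 CPM in the other restored libraries. ZNF506 was at 0.936 CPM in restored replicate 3 and at 2.03 to 2.15 CPM in the other restored libraries. TRIM28 was at 581 CPM in parental replicate 4 and at 413 to 440 CPM in the other parental libraries. For ZNF260, ZNF544 and ZNF506 the groups did not overlap with or without that library.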

How the results depend on the processing

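Members called higher numbered 41 of 201 (20.4%, beside 10.4% of all genes). They remained between 32 and 55 under other scalings, filters, tools, the GC and length offset with or without the block, and thinning to equal depth. In those fits 6.11% to 12.5% of all genes were called higher, and the thinning was chosen after seeing the data. They numbered 27 with the replicate block (7.71% of all genes) and 5 at an adjusted p under 0.01 (3.96%). With single libraries left out they numbered 11 to 52 (5.55% to 13.1% of all genes). Among the 87 tested members without exon overlap 18 were higher (20.7%), a share like that of all members. Members called lower numbered 10 (4.98%, beside 8.77% of all genes), 6 with total counts only (6.07% of all genes) and 8 with the replicate block (6.52%). They numbered 0 at an adjusted p under 0.01 (2.79% of all genes) and 1 to 20 with single libraries left out (4.16% to 11.0%). Among the 87 tested members without exon overlap 3 were lower (3.45%). The correlations of same-numbered deviations were -0.06, 0.007, -0.03 and 0.23, and 1 of the 4 numbers matched its own best. With 4 libraries per group, such correlations cannot decide whether the replicate numbers pair the samples. Segment medians ran from 0.28 to 0.45 below 40 Mb, 0.27 to 0.43 from 40 to 56 Mb and 0.33 to 0.60 above 56 Mb, the 0.33 being that without exon overlap. Of 682 alternative values for named genes, 615 kept direction and call, 55 lost the call, 9 gained one and 3 changed sign: ZNF787 without parental replicate 3, and ZNF274 without parental replicate 1 and without restored replicate 1. With single libraries left out ZNF787 ran from -0.010 to 0.13 and ZNF274 from -0.040 to 0.17. The cause was not tested. Total counts alone moved the median of all genes to 0.086. Near-identical paralogs, exon overlaps counted with a strand setting not given in the sources used here, and few reads per gene limit what single members show.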

Other observations

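In 18 members restored replicates 2 to 4 lay above all parental libraries while restored replicate 1 did not: ZNF554, ZNF555, ZNF77, ZNF561, ZNF433, ZNF333, ZNF14, ZNF790, ZNF793, ZNF571, ZNF526, ZNF576, ZNF221, ZNF230, ZNF285, ZNF473, ZNF613 and ZNF784. Among all genes tested this held for 547. ZNF554, a KRAB protein gene at the tip of the short arm, was at 1.42 to 2.94 CPM in parental libraries, 2.15 CPM in restored replicate 1 and 4.95 to 7.57 CPM in the other restored libraries. Its log2 fold change was 1.32 (adjusted p = 0.0403 by edgeR) on all libraries and 1.59 (adjusted p = 0.0046) without restored replicate 1. ZNF333, whose gene stands alone on the short arm, was at 6.30 to 8.54 CPM in parental libraries, 8.47 CPM in restored replicate 1 and 12.9 to 17.3 CPM in the other restored libraries. Its log2 fold change was 0.82 (adjusted p = 0.0281) on all libraries and 0.99 (adjusted p = 0.0047) without restored replicate 1. The ZNF554 call was lost without each library but restored replicate 1 (adjusted p 0.0528 to 0.128), and that of ZNF333 without each library but parental replicate 1 and restored replicate 1 (adjusted p 0.0590 to 0.0962).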
